A study of Mus musculus with 4 samples.

Results

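The genes described here encode cytosolic receptors for foreign or misplaced nucleic acid, and adaptors and kinases that carry signals to interferon genes. They are Ddx58, Ifih1, Dhx58, Dhx33, Zbp1, Mavs, Tmem173, Ticam1, Tbk1 and Ikbke. They were found by gene name among the non-control spots of the arrays, which gave 10 genes of the 27674 gene names present and 19 probes of 41174. The arrays were hybridised with RNA of immature granulocytes sorted from mouse bone marrow. The first group was miR-223 KO, in which the microRNA gene is deleted, and the second was wild type (WT), with 2 arrays each. All 4 samples came from male mice of the C57BL/6 strain. The labels give no age, no sorting gate and no detail of the deletion, and they do not say that the replicates of a genotype came from separate animals. The p-values below therefore rest on how far the samples of a genotype differ from each other, a spread that may be no more than technical. For each probe limma combines that spread with a value drawn from all tested probes. The small number of arrays limits the precision throughout.

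miR-223 is a microRNA of the myeloid lineage, abundant in maturing granulocytes. A microRNA lowers target mRNAs by pairing its seed, the bases near its 5′ end, with complementary sites, most often in the 3′ untranslated region. RIG-I (Ddx58) and MDA5 (Ifih1) bind viral double-stranded RNA in the cytosol and signal through MAVS on mitochondria. STING (Tmem173) signals from the endoplasmic reticulum in response to cyclic dinucleotides, and TRIF (Ticam1) serves Toll-like receptors 3 and 4. These routes meet at the kinases TBK1 and IKKε (Ikbke), which phosphorylate the interferon regulatory factors IRF3 and IRF7. Several of the sensors are themselves interferon-induced genes, so their mRNA levels can follow interferon exposure.

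Of the 19 probes, 17 were tested, and all 17 were well above background on all 4 arrays, so each of the 10 genes had a measured level in both genotypes. The exceptions were Dhx58 probe 2, which was well above background on KO replicate 2 only, and Dhx33 probe 3, which was well above background on no array. Probes are numbered within a gene from the brightest down. Levels are log2 processed signal minus the 75th percentile of the array, so 0 is the level of the 75th percentile spot. A difference is KO minus WT on this log2 scale with its standard error from limma, 2 arrays per genotype.

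The level of the brightest probe was higher in KO in 9 of the 10 genes, all but Tbk1. Among all 25749 tested probes, 45.3% were higher in KO. Both KO arrays lay above both WT arrays in 7 of the 10 genes, against 26.3% of all tested probes, and both lay below in 0 of the 10, against 32.8%. The median difference of the 10 genes was 0.25, beside -0.03 over all tested probes, where the middle 50% of differences ran from -0.24 to 0.16. When all 16988 genes were read from their brightest probe, 47.6% were higher in KO. Both KO arrays lay above both WT arrays in 28%, and the median was -0.02. The 10 genes were picked with earlier results of the same arrays known, so their counts and median describe them and are no independent evidence of a direction.

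No single gene passed the test. At a limma adjusted p under 0.05, 0 of the 10 genes and 0 of the 25749 probes (0%) were called. The smallest adjusted p over all probes was 0.0874, and among the 17 described probes it was 0.102. At an unadjusted p under 0.05, 4 of the 10 genes differed in either direction, beside 24.6% of all probes: 4 were higher in KO, beside 11.1%, and 0 were lower, beside 13.6%. A difference of at least 0.5 was measured in 3 of the 10, Zbp1, Tmem173 and Dhx33, beside 7.06% of all probes. When limma was given a trend of variance on intensity, 3 of the 10 genes passed as higher, beside 5.03% of all probes, and 0 as lower, beside 4.6%. Those 3 genes were Dhx58, Tmem173 and Dhx33. With 2 arrays against 2, an exact permutation test cannot give a two-sided p below 0.333, so none is reported.

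**Figure D1:**
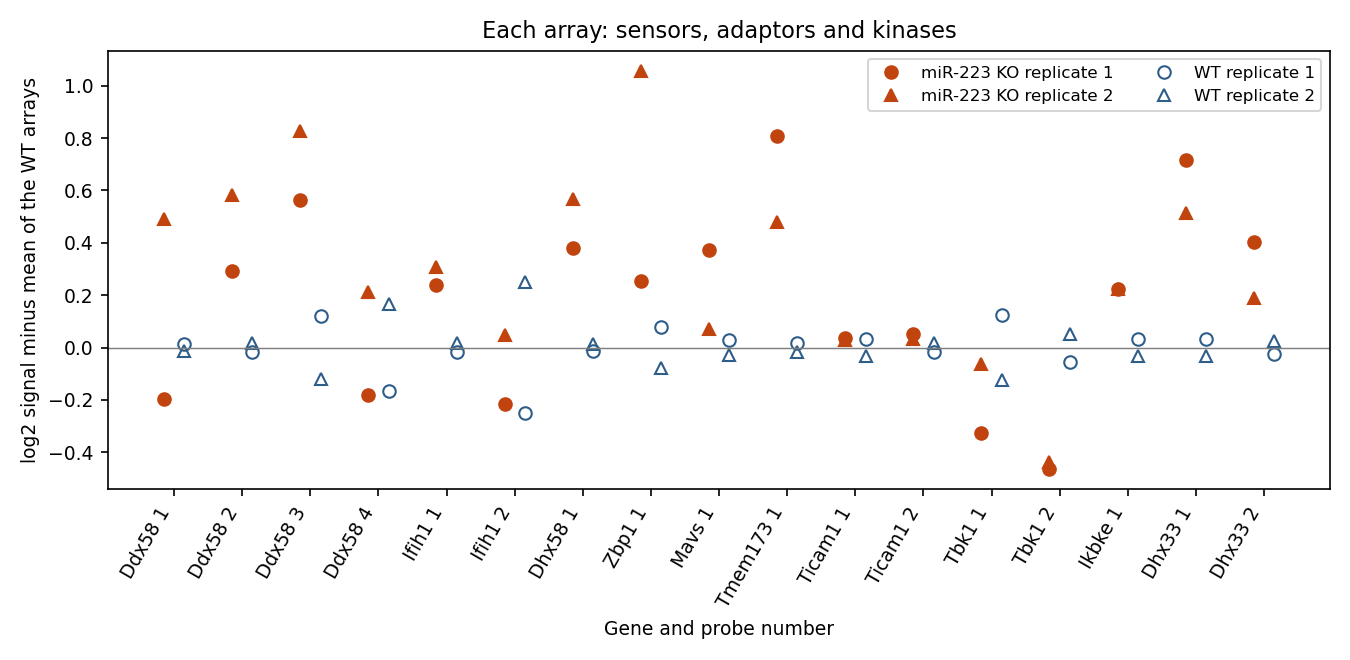
Scaled log2 signal of each tested probe minus the mean of its 2 WT arrays (vertical axis) on the 2 miR-223 KO arrays (filled) and the 2 WT arrays (open), KO drawn to the left of WT, 1 point per array. The KO points stand above the WT points for Dhx58, Tmem173, Ikbke and both Dhx33 probes, stand below for Tbk1 probe 2, and are widely spaced for Zbp1 and Ddx58 probe 1.

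**Figure D2:**
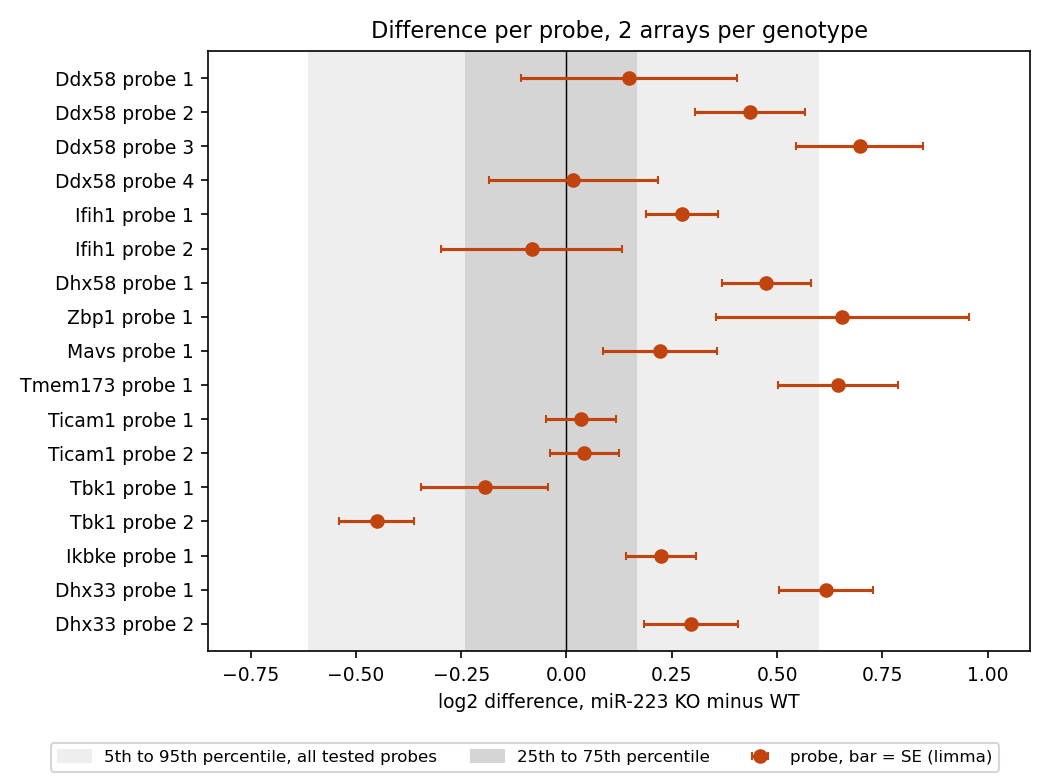
Difference per probe (horizontal axis, log2, miR-223 KO minus WT; points with SE from limma, 2 arrays per genotype) over grey bands that hold the middle of all 25749 tested probes. Ddx58 probe 3, Zbp1, Tmem173 and Dhx33 probe 1 lie beyond the 95th percentile of all probes at 0.60, and Tbk1 probe 2 lies at -0.45.

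Tmem173, the STING adaptor, was among the larger differences of the set. Its probe (mm9 chromosome 18, 35893692 to 35893751, minus strand) read 2891 and 2688 units of processed signal in KO granulocytes and 1453 and 1399 in WT granulocytes. After scaling the levels were 3.0 and 2.67 in KO, and 2.21 and 2.17 in WT. The 2 genotypes did not overlap. The difference was 0.65 ± 0.14 (SE), a 1.56-fold higher level in KO, with a limma unadjusted p of 0.0106 and an adjusted p of 0.117. With the intensity trend the adjusted p was 0.0246.

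Zbp1 encodes a sensor of left-handed Z-form nucleic acid that can trigger cell death through RIPK3, and it is a classical interferon-induced gene. Its probe (mm9 chromosome 2, 173032113 to 173032170, minus strand) read 223.03 and 455 units in KO and 172 and 152 in WT. Scaled levels were -0.70 and 0.11 in KO, and -0.87 and -1.03 in WT. Both KO arrays lay above both WT arrays, but KO replicate 2 set most of the size. The difference was 0.66 ± 0.30 with all arrays (adjusted p = 0.273, limma), 0.25 without KO replicate 2 and 1.06 without KO replicate 1.

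Dhx58 encodes LGP2, the third RIG-I-like receptor, which binds RNA but lacks the caspase recruitment domains that signal to MAVS. Probe 1 (mm9 chromosome 11, 100556271 to 100556330, minus strand) had levels of 0.51 and 0.69 in KO, and 0.11 and 0.14 in WT. The processed signals behind these were 513 and 683 in KO and 339 and 342 in WT, and the genotypes did not overlap. The difference was 0.47 ± 0.11, or 1.39-fold, with an adjusted p of 0.118 (limma) and of 0.0328 with the intensity trend. Probe 2, designed on another transcript, was dim at 6.82 and 9.42 units in KO and 5.39 and 6.14 in WT.

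Ddx58, the gene of RIG-I, had the widest spread among its own probes. Its 4 probes lie on the minus strand of chromosome 4 (mm9), probe 3 nearest the 3′ end and probe 4 farthest from it. The difference was 0.70 ± 0.15 at probe 3, 0.44 ± 0.13 at probe 2, which lies 1709 bases upstream in the genome, 0.15 ± 0.26 at probe 1, 5785 bases upstream, and 0.02 ± 0.20 at probe 4, 25395 bases upstream. With normexp background correction on all spots the values at probes 3, 2, 1 and 4 were -0.29, -0.25, 0.29 and -0.78. The signs at probes 3, 2 and 4 thus turned, and probe 1 had the highest value. At probe 3 the levels were -2.11 and -1.85 in KO, and -2.55 and -2.80 in WT, without overlap. At probe 1 they were 0.43 and 1.12 in KO, and 0.64 and 0.61 in WT, so the WT values lay between those of KO. No Ddx58 probe passed the test, with limma adjusted p of 0.115, 0.163, 0.747 and 0.964 in the order given. Probe 3 alone passed with the intensity trend, at 0.0455.

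The sign at Ddx58 probe 1 rests on single arrays: its difference was -0.20 without KO replicate 2 and 0.49 without KO replicate 1. Probe 4 turned to -0.18 without KO replicate 2 and to -0.15 without WT replicate 1. In processed signal probe 1 read 486 and 915 in KO, and 489 and 474 in WT. The brightest probe, by which the gene was counted as higher above, is thus not the one with the largest difference. The letters of the 2 probes with the smallest differences are shown, since they name exactly the stretches of the transcript, in the files' mm9 annotation, over which the genotypes overlapped.
Ddx58 probe 1 (chr4:40156918-40156977, minus strand): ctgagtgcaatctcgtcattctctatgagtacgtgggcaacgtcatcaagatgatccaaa
Ddx58 probe 4 (chr4:40176528-40176587, minus strand): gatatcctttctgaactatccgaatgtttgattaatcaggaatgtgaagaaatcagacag

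Ifih1, the gene of MDA5, had the same order along its transcript as Ddx58. Probe 1 (mm9 chromosome 2, 62435621 to 62435680, minus strand) had levels of 0.66 and 0.74 in KO, and 0.41 and 0.44 in WT, so the genotypes did not overlap. The difference was 0.27 ± 0.09, or 1.21-fold, with an adjusted p of 0.17 (limma). Probe 2, 9492 bases upstream in the genome, had levels of -2.92 and -2.66 in KO, and -2.95 and -2.46 in WT, which overlapped, and a difference of -0.08 ± 0.22. That sign turned to 0.05 without KO replicate 1 and to 0.17 without WT replicate 2. Probe 2 is 60 bases long but its alignment covers 2148 bases of the genome, so it spans at least 1 intron of Ifih1 and reads spliced RNA; its letters are shown for that reason.
Ifih1 probe 2 (chr2:62445113-62447260, minus strand): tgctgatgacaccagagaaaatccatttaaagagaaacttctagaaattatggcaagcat

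Dhx33 encodes a DEAH-box helicase with a role in ribosomal RNA synthesis that has also been described, in human cells, as a sensor of double-stranded RNA upstream of the NLRP3 inflammasome. Probe 1 (mm9 chromosome 11, 70797780 to 70797839, minus strand) read 924 and 937 units in KO and 501 and 472 in WT. Scaled levels were 1.35 and 1.15 in KO, and 0.67 and 0.60 in WT, with no overlap. The difference was 0.62 ± 0.11, or 1.53-fold, and its limma adjusted p of 0.102 was the smallest of the 17 probes (0.0181 with the intensity trend). Probe 2, 2567 bases upstream in the genome, gave levels of -1.87 and -2.09 in KO, and -2.30 and -2.25 in WT, again without overlap. Its difference was 0.30 ± 0.11 with a limma adjusted p of 0.213. It was 0.19 without KO replicate 1, and it turned to -0.46 with normexp on all spots. Probe 3 read between 1.25 and 1.71 units over the 4 arrays, at background.

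Dhx33 probe 1 was the only one of the 19 probes to hold a match to the seed of miR-223, and its letters around the match are shown beside the microRNA's. The mature miR-223-3p sequence is from RefSeq (GRCm38.p6, chrX:96242884-96242905, plus strand), with capitals at bases 2 to 8, the seed. In the probe window, bases 13 to 42 of the 60-base probe, capitals mark the complement of the seed followed by A, which makes an 8mer site. The letters AACTGACA were present, on the transcript strand, in 34 of the 25749 tested probes (0.132%), and the shorter ACTGAC in 379 (1.47%). A probe covers 60 bases of a transcript, so the absence of a match in the other probes says nothing about the rest of those transcripts, and no test of targeting was made.
mmu-miR-223-3p: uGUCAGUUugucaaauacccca
Dhx33 probe 1, window: gtagtgtagaaAACTGACAagcggatttgg

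Mavs, the mitochondrial adaptor of RIG-I and MDA5, had a small measured difference. Its probe (mm9 chromosome 2, 131073435 to 131073494, plus strand) had levels of -0.21 and -0.52 in KO, and -0.56 and -0.62 in WT. Both KO arrays lay above both WT arrays, by a small margin at KO replicate 2. The difference was 0.22 ± 0.14 with an adjusted p of 0.376 (limma), and without KO replicate 1 it was 0.07. Ticam1, the gene of TRIF, was the closest to equal of the 10. Probe 1 (mm9 chromosome 17, 56409285 to 56409344, minus strand) had levels of 0.61 and 0.61 in KO, and 0.61 and 0.54 in WT, which overlapped. Its difference was 0.03 ± 0.08 (adjusted p = 0.821, limma). Probe 2 shares 40 of its 60 bases with probe 1, so it is a near repeat of the same measurement, and it gave 0.04 ± 0.08.

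The 2 kinases went opposite ways in their measured levels, though neither passed the test. Ikbke (mm9 chromosome 1, 133151809 to 133151868, minus strand) had levels of 0.82 and 0.82 in KO, and 0.62 and 0.56 in WT, without overlap. Its difference was 0.22 ± 0.08, or 1.17-fold, with an adjusted p of 0.21 (limma). Tbk1 was the only one of the 10 genes with a lower KO level at its brightest probe. At probe 1 the levels were 0.82 and 1.09 in KO, and 1.27 and 1.03 in WT, which overlapped, and the difference was -0.19 ± 0.15 (adjusted p = 0.476, limma). It was -0.06 without KO replicate 1 and -0.07 without WT replicate 1, -0.33 without KO replicate 2 and -0.32 without WT replicate 2, and it turned to 0.063 with normexp on all spots. At probe 2 they were -0.43 and -0.40 in KO, and -0.02 and 0.09 in WT. Both KO arrays lay below both WT arrays there, alone among the 17 probes, with a difference of -0.45 ± 0.09. The adjusted p was 0.109 (limma) and 0.0326 with the intensity trend. Both Tbk1 probes span introns, with alignments of 224 and 1255 bases on the minus strand of mm9 chromosome 10. Whether the 2 probes differed from each other was not tested, and both spliced stretches are shown.
Tbk1 probe 1 (chr10:120988364-120988587, minus strand): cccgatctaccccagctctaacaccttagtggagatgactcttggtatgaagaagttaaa
Tbk1 probe 2 (chr10:120989556-120990810, minus strand): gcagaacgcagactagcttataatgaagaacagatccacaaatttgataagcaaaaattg

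Counted by probe rather than by gene, 14 of the 17 tested probes had a positive difference (45.3% of all tested probes did) and 11 had both KO arrays above both WT arrays (26.3% of all). At an unadjusted p under 0.05 there were 6 higher and 1 lower, beside 11.1% and 13.6% of all probes. With the intensity trend 4 passed as higher and 1 as lower, beside 5.03% and 4.6% of all. The 3 probes with a negative difference were Ifih1 probe 2 and both of Tbk1. Probes of 1 gene share their transcript, so these counts are not independent observations.

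In 4 of these genes, probes of 1 RefSeq transcript lay at least 1000 bases apart in the genome, and in all 4 the difference was larger at the 3′ probe than at the 5′ probe. The 3′ value exceeded the 5′ value by 0.26 in Tbk1, 0.36 in Ifih1, 0.32 in Dhx33 and 0.68 in Ddx58. The same held across the arrays: among 3314 transcripts with probes so spaced, the 3′ probe had the larger KO minus WT difference in 2234 (67.4%), by a median of 0.09. The median difference was 0.02 at the 3′ probes and -0.08 at the 5′ probes. Per array, the median level of the 3′ probe over the 5′ probe was 1.47 and 1.47 in KO, and 1.42 and 1.35 in WT. In the mean of the 4 arrays the 3′ probe was brighter by 1.24 in Tbk1, 3.31 in Ifih1, 3.07 in Dhx33 and 0.42 in Ddx58. Position and signal level thus cannot be told apart in these genes. A 3′ difference that exceeded the 5′ difference by as much as in Ddx58 was seen in 2.17% of the transcripts. Genes read from a single probe, such as Tmem173, Zbp1, Mavs and Ikbke, allow no such comparison, and the part of this 3′ tilt in any difference above was not tested.

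**Figure D3:**
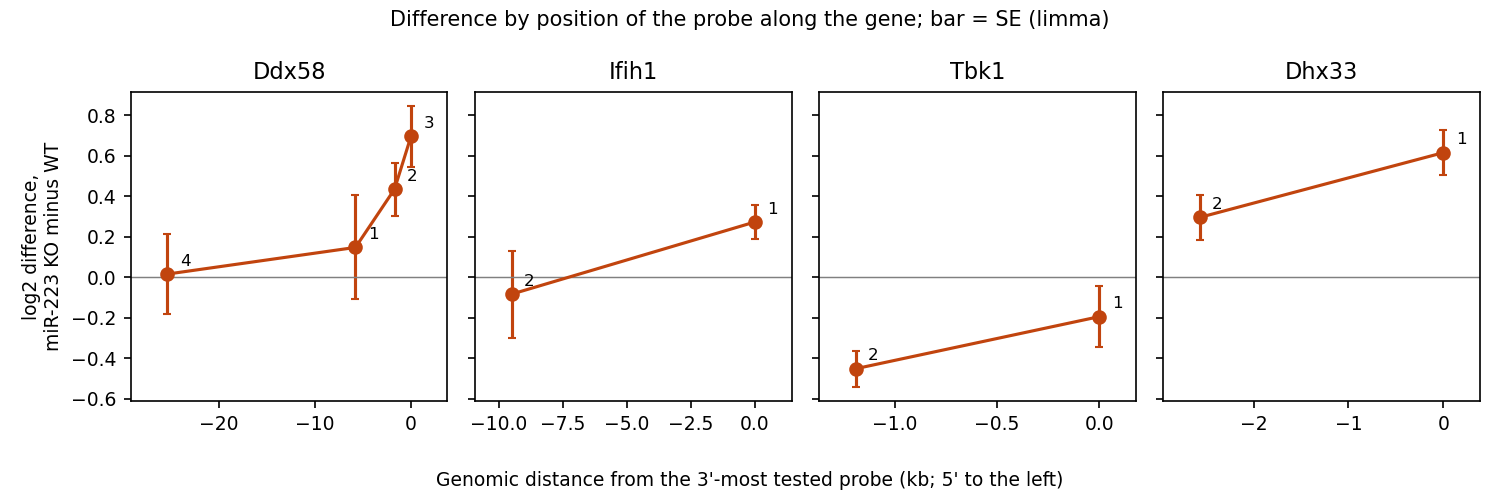
Difference at each probe (vertical axis, log2, miR-223 KO minus WT, bar = SE from limma) against its genomic distance in kilobases from the 3′-most tested probe, 5′ to the left, for the 4 genes with spaced probes. The value is higher at the 3′ end in all 4 genes and Tbk1 stays below 0 at both ends.

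**Figure D4:**
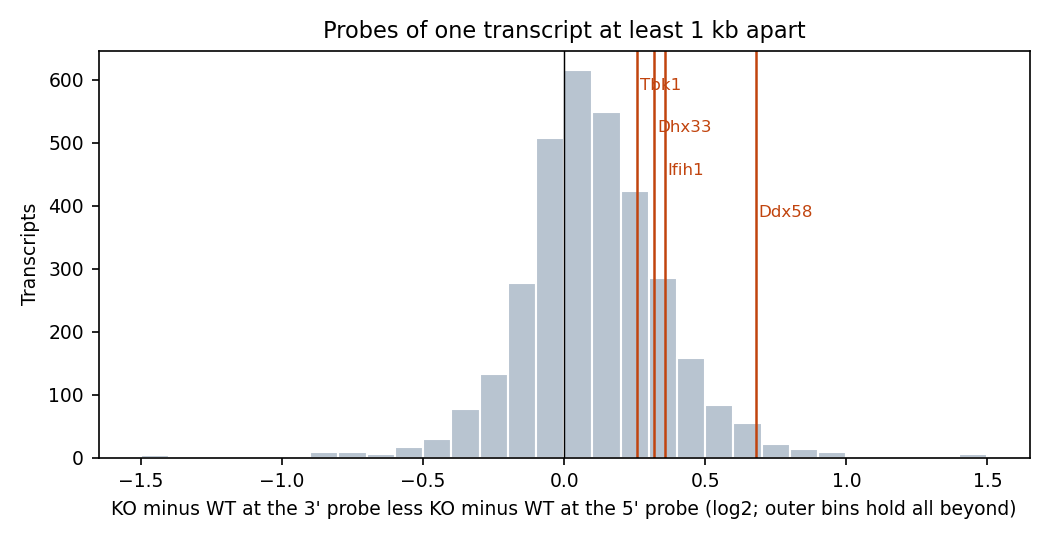
Distribution over 3314 transcripts of the difference at the 3′ probe minus that at the 5′ probe (log2, miR-223 KO minus WT at each), with the 4 described genes marked. The distribution is centred at 0.09 and all 4 genes lie to its right.

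The 2 KO arrays also differed from each other more than the 2 WT arrays did at these probes. The median gap between arrays of 1 genotype was 0.26 in KO and 0.06 in WT over the 17 probes, and 0.14 in KO and 0.13 in WT over all tested probes. The gap was larger in KO at 12 of the 17 probes, beside 51.8% of all tested probes, and probes of 1 gene are not independent. KO replicate 2 was the higher KO array at all 4 Ddx58 probes, both Ifih1 probes, both Tbk1 probes, Dhx58 probe 1 and Zbp1. KO replicate 1 was the higher one at Tmem173, Mavs and both Dhx33 probes. The 2 KO arrays were nearly equal at Ikbke and both Ticam1 probes.

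Promoters were examined because RIG-I, MDA5, LGP2 and ZBP1 are known interferon-induced genes. RefSeq promoter sequence (GRCm38.p6, 250 bases before to 50 after the gene start) was found for 7 of the 10 genes, all but Dhx58, Zbp1 and Tmem173. The core letters of the interferon-stimulated response element, GAAANNGAA on either strand (TTCNNTTTC on the other), occurred in 2812 of 32851 promoters in the table (8.56%) and in Ifih1 and Ddx58 among the 7. The letters TTCNNNGAA, the gamma-activated sequence, occurred in 2726 promoters (8.3%) and in 0 of the 7. Both motifs were searched on both strands, and they share letters at their ends. The 3 matches are shown in 30-base windows on the transcript strand, with capitals at the match, which begins 112 bases before the start in the first Ifih1 window, 33 bases after it in the second and 4 bases after it in Ddx58. A match describes letters and does not show binding.
Ifih1 (chr2:62646348-62646377, minus strand): agaattcgcgTTCCCTTTCctgtttctcac
Ifih1 (chr2:62646206-62646235, minus strand): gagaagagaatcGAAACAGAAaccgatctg
Ddx58 (chr4:40239803-40239832, minus strand): ctgaggcagtTTCGATTTCctatggccagc

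The genes around the sensors were read from 5 lists drawn from general knowledge. These lists were chosen with earlier results of the same arrays known, so their counts are no independent evidence of a direction. No gene on any of them passed the limma test. Among 31 measured genes that relay or restrain the signal, 15 were higher and 16 lower in KO. At an unadjusted p under 0.05 there were 5 higher and 2 lower, beside 11.1% and 13.6% of all probes. Usp18, an interferon-induced enzyme that removes ISG15 and limits interferon receptor signalling, had a difference of 1.05 ± 0.15. Irf7, the interferon-induced factor that TBK1 and IKKε activate, had 0.86 ± 0.13, and Rnf135, the ubiquitin ligase Riplet that acts on RIG-I, had 0.40 ± 0.09. Optn, which encodes the TBK1-binding autophagy receptor optineurin, had the opposite sign at -0.72 ± 0.09.

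Among 28 measured genes of DNA sensing and of nucleases that clear nucleic acid, 15 were higher and 13 lower. At an unadjusted p under 0.05, 9 were higher and 0 lower, beside 11.1% and 13.6% of all probes. Trex1, a DNA exonuclease that limits activation of the cGAS and STING route, had a difference of 0.93 ± 0.14. Samhd1, a deoxynucleotide hydrolase, had 0.37 ± 0.09, and Pqbp1, a cofactor in sensing of retroviral DNA, had 0.40 ± 0.09. The 27 other helicases were split 13 higher and 14 lower, with 1 in each direction at an unadjusted p under 0.05 (11.1% and 13.6% of all probes) and a median of -0.02. In that list Dhx57 had 0.27 ± 0.09, Dicer1 -0.30 ± 0.11, Dhx40 0.23 ± 0.10 and Ddx39b -0.17 ± 0.08.

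Of 9 measured genes of Toll-like receptor 4 signalling, 7 were higher and 2 lower, with 4 higher and 0 lower at an unadjusted p under 0.05, beside 11.1% and 13.6% of all probes. The list holds Myd88, Tirap, Irak1 and Irak4, which serve the MyD88 route and do not lie upstream of TRIF, and both lower genes, Tirap and Irak1, are among these. Ly96, which encodes MD-2, the lipopolysaccharide-binding partner of TLR4, had a difference of 0.95 ± 0.08. Its limma adjusted p of 0.0874 equalled the smallest of all probes, and with the intensity trend it was 0.00731. The adaptor Ticam2 (TRAM) had 0.47 ± 0.13, the co-receptor Cd14 had 0.71 ± 0.23 and Tlr4 had 0.27 ± 0.09, while Tlr3 was not well above background. Among 16 measured interferon genes and interferon receptor components, 11 were higher and 5 lower, with 1 higher and 0 lower at an unadjusted p under 0.05, beside 11.1% and 13.6% of all probes. Irf9, the DNA-binding subunit of the interferon-activated complex ISGF3, had 0.56 ± 0.09, the receptor chain Ifngr2 had 0.22 ± 0.08 and Ifna9 had -0.31 ± 0.14. Ifnb1 and 5 further interferon genes were not tested for low signal. The medians of the relay, DNA sensing, Toll-like receptor and interferon lists were -0.00071, 0.02, 0.22 and 0.12, beside 0.25 for the 10 genes described.

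**Figure D5:**
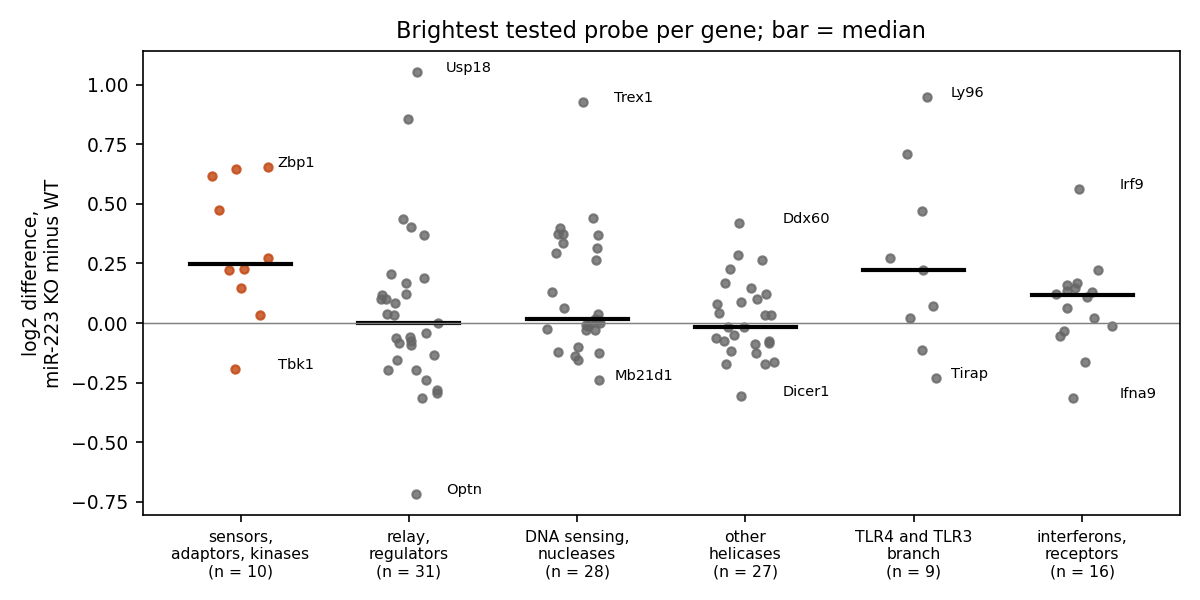
Difference (vertical axis, log2, miR-223 KO minus WT) of the brightest tested probe of each gene in the described set and in 5 lists of surrounding genes, with the list median as a bar. The described set and the Toll-like receptor list have medians of 0.25 and 0.22, and the relay and DNA sensing lists lie near 0 with single genes such as Usp18, Trex1 and Optn far from it.

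The labelled cell type was checked with marker lists, as the summed signal in multiples of each array's 75th percentile. All 13 granulocyte precursor markers on the array were measured, and they summed to 6192 and 5486 in KO, and 5862 and 6416 in WT, which overlapped. Within the list 8 genes were higher and 5 lower in KO. Elane, Prtn3 and Ctsg differed by 0.50, 0.72 and 0.63, and Ltf, S100a8 and S100a9 by -0.44, -0.20 and -0.20, each without overlap. Mmp8 (0.55), Csf3r (0.25) and Gfi1 (0.11) were also higher without overlap. Mpo (0.05), Lcn2 (0.13), Camp (-0.05) and Ngp (-0.04) overlapped between the genotypes. Monocyte markers summed to 830 and 752 in KO, and 704 and 704 in WT. Ly6c2, which overlapped between the genotypes (0.04), made up most of each sum. Of the 12 monocyte genes, 11 were higher in KO, 9 of them at a limma unadjusted p under 0.05, beside 11.1% of all probes. The part of such cells in the differences of the sensors was not tested. In bulk RNA, more cells of a type and more RNA per cell cannot be told apart. Dendritic cell markers summed to 82.0 and 64.6 in KO against 44.7 and 52.3 in WT, with 6 of 8 genes higher. H2-Ab1 (0.65), H2-Aa (0.69) and Cd74 (0.53) made up most of each sum. Itgax (0.18) was higher without overlap, and Flt3 (0.15), Cd209a (0.24), Zbtb46 (-0.07) and Xcr1 (-0.30) overlapped between the genotypes. Eosinophil markers summed to 19.6 and 18.1 in KO against 13.02 and 11.2 in WT, with 5 of 6 genes higher and Il5ra not tested.

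In some lists a bright gene set the sum. Macrophage markers summed to 19.8 and 17.7 in KO against 13.1 and 14.6 in WT, through Vcam1 (0.47) and Adgre1 (0.97). In that list 4 genes were higher and 5 lower, with Cd5l at -0.998, Cd163 at -0.87 and Mertk at -0.80. B cell markers summed to 10.04 and 7.89 in KO against 7.20 and 7.73 in WT, through Cd79b (0.46), whereas the 6 other measured genes were lower and Ebf1 was not tested. T cell markers summed to 0.680 and 0.523 in KO against 1.18 and 1.16 in WT, mostly through Cd3d (-1.43). Of the 7 measured genes, 6 were lower in KO. Cd8a (-0.82) overlapped between the genotypes and Cd5 (-0.39) did not. Cd3e (-0.22), Cd4 (-0.04), Lck (-0.05) and Cd3g (0.37) differed less, and Trat1 was too dim to test.

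Plasmacytoid dendritic cells are strong interferon producers, and their markers summed to 22.5 and 10.9 in KO, and 13.8 and 11.97 in WT, so the sums overlapped. Within that list 3 genes were higher and 5 lower in KO. Bst2 (0.61) and Tcf4 (0.55) were higher without overlap, and the other genes overlapped. Every gene of it read higher on KO replicate 1 than on KO replicate 2, Cox6a2 at levels of 1.98 and 0.21. The sums of natural killer cell markers overlapped as well, at 0.494 and 0.246 in KO, and 0.552 and 0.377 in WT. Klrd1 was the brightest of them, and Ncr1 and Eomes were not tested. Megakaryocyte markers summed to 1.71 and 2.33 in KO, and 0.903 and 1.06 in WT, with Gp1ba and Ppbp not tested. All 4 measured genes of that list were higher in KO, but only 1 of them without overlap. Basophil and mast cell markers summed to 3.091 and 3.111 in KO, and 3.038 and 3.005 in WT, with Gzmb not tested. Of the 5 measured there, 2 were higher and 3 lower in KO. Erythroid markers summed to 108 and 79.3 in KO against 149 and 144 in WT, with 5 of 6 genes lower. Klf1, Epb4.2 and Gata1 of that list were too dim to test.

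The 4 arrays lay on 1 slide. The 75th percentile of signal was 361 and 422 in KO, and 314 and 310 in WT, and 62.4% and 62.7% of spots were well above background in KO, against 59.6% and 62.9% in WT. No non-control spot was saturated. No probe was named for Mir223, so the deletion could not be checked on these arrays.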

How the data were processed

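RNA of immature granulocytes from 2 miR-223 KO and 2 WT samples was labelled with Cy3 and hybridised to one-colour Agilent arrays, per the labels' protocols. Per the file headers, the deposited intensity is the processed signal of Agilent Feature Extraction 10.5.1.1, background-subtracted and not scaled between arrays. The table of log2 values that the authors deposited followed the log2 of that signal up to 1 constant for each array (column medians all 4.68). That comparison is the only source for how the table was scaled and centred.

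Here the 75th percentile over non-control spots was subtracted from log2 signal, spots of a probe were averaged, and a probe was kept if 2 or more of the 4 arrays read it well above background (25749 of 41174). The genotypes were compared in R 4.3.3 with lmFit and eBayes of limma 3.58.1 (no trend, no replicate block, prior degrees of freedom 1.99, Benjamini-Hochberg over all tested probes, KO minus WT); the script was tested on simulated data. A gene was read from its brightest tested probe. Alternatives were the intensity trend, normexp with an offset of 50 (with and without control spots), quantile and median scaling, other filters, outlier spots left out, a mean over probes, the deposited values, a replicate block and leaving out each array. The labels do not say that a replicate number marks a pair, so the numbers were not taken as pairs. Over all tested probes, replicates 1 of both genotypes did not deviate together (r = 0.027). Whether some genes followed the replicate number was not tested.

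Gene names and positions are those of the files, on mm9; exon and UTR annotation of that build was not used here. The microRNA and promoters came from RefSeq tables of GRCm38.p6. Members and lists were chosen with earlier results of these data known. All members were named, and from each pathway list up to 4 genes with the smallest p. Some genes that these rules would name are not reported here.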

Additional observations from a re-analysis of the deposited data

How the results depend on the processing

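With limma adjusted over all probes, the count past 0.05 was 0 in the analysis reported, 2480 with an intensity trend (1295 higher and 1185 lower in KO), 3545 with normexp without control spots (1372 and 2173), 128 among probes above background on all 4 arrays (88 and 40), 267 with the authors' deposited values (211 and 56), and 0 under the other alternatives run. Of the 10 genes, 3 passed with the trend and 3 with normexp without control spots, all higher, and 0 otherwise. The share of all probes higher in KO was 45.3% as reported, 47.7% with quantile scaling, 48.7% with median scaling, 56.4% with the deposited values and 34.1% with another background correction, normexp without control spots. The median of the 10 genes was 0.33 with normexp on all spots, where the median of all probes was -0.31, and 0.33 with the deposited values, where that median was 0.05. Leaving out 1 array gave medians from 0.24 to 0.39, the highest without KO replicate 1; the lone array is then assumed to vary like the other genotype. The fit with a replicate block, whose pairing the labels do not state, called 0 probes and 0 of the 10 genes, with a smallest limma adjusted p of 0.155.

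Over the single-probe differences, 228 values kept their sign and side of the threshold, 9 passed it and 11 turned in sign. Under normexp on all spots the turned values were -0.25, -0.29 and -0.78 at Ddx58 probes 2, 3 and 4, -0.46 at Dhx33 probe 2 and 0.063 at Tbk1 probe 1. Normexp without control spots gave -0.066 at Ddx58 probe 4. Leaving out 1 array gave from -0.20 to 0.49 at Ddx58 probe 1 (negative without KO replicate 2), from -0.18 to 0.21 at Ddx58 probe 4 (negative without KO replicate 2 or WT replicate 1) and from -0.33 to 0.17 at Ifih1 probe 2 (positive without KO replicate 1 or WT replicate 2). The cause was not tested.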
